A study of Homo sapiens with 8 samples.

Results

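Transcription factors that drive the epithelial to mesenchymal transition, EMT, were examined in 2 human lung adenocarcinoma cell lines, HCC4006 and HCC827, whose growth depends on a mutated EGFR. The 9 genes ZEB1, ZEB2, SNAI1, SNAI2, TWIST1, TWIST2, TCF3, TCF4 and FOXC1 were looked up by symbol among the 48405 rows of each line's expression table, and 8 were found. TWIST2 had no row under that name and was not analysed here. Each line was present as a control culture carried in DMSO, the solvent, and as a culture adapted to grow in 3 µM gefitinib, an inhibitor of the EGFR kinase. Both cultures of a line carried that line's EGFR mutation and grew in the same serum-containing medium, and the labels report DNA fingerprints as the check that they were the same cells. Each of the 4 groups had 2 polyadenylated RNA libraries, called A and B here after the table columns. Since the adapted cells were kept in the drug, adaptation and the presence of gefitinib cannot be told apart. The labels do not state whether libraries A and B derive from separate cultures, and p-values therefore measure only the spread between these libraries, which may be technical.

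In EMT, epithelial cells give up their cell junctions and polarity and take on a migratory, mesenchymal form. ZEB1 and ZEB2 are zinc finger and homeobox repressors, and SNAI1 (Snail) and SNAI2 (Slug) are zinc finger repressors. These proteins bind E-box sequences near epithelial genes such as CDH1, which encodes E-cadherin, and recruit corepressors. TWIST1 and TWIST2 are basic helix-loop-helix factors that pair with the E-proteins encoded by TCF3 (E2A) and TCF4 (E2-2, a different gene from the WNT effector TCF7L2), while FOXC1 is a forkhead factor. In lung cancers with mutated EGFR, EMT is one of the changes known to accompany acquired resistance to EGFR inhibitors.

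Values are FPKM, fragment numbers corrected for transcript length and library size, so levels of different genes can be set side by side within a library. Libraries had 17406 to 19333 rows above 0, and the median of these rows was 53.6 to 59.0 FPKM. That median is high for FPKM, so the tables may carry a further scaling, and read depth is unknown. HCC4006 DMSO library A stood apart in that its 10 highest rows took 15.6% of all FPKM, against 5.30% to 10.3% elsewhere. Each line has its own table, so levels in the 2 lines are placed side by side and not tested; tests were made of changes within a line and of the difference between those changes. In bulk RNA, fewer cells of a type and less RNA per cell cannot be told apart.

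ZEB1 and ZEB2 RNA rose in the adapted HCC4006 culture, to above 50.2% to 56.9% of the library's expressed rows, near the middle. In the other 3 groups both genes stood above at most 22.2% of them. No such rise was seen in adapted HCC827, and the difference between the lines passed the test for both genes. TWIST1, TCF4 and FOXC1 were also higher in both adapted HCC4006 libraries than in both DMSO libraries, but short of the threshold. SNAI2 differed strongly between the DMSO libraries of both lines, SNAI1 between those of HCC4006 under DMSO and of adapted HCC827, and the TCF3 ranges overlapped between the cultures of each line.

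ZEB2 (hg19 chr2:145145567-145278683) was the lowest of the 8 factors in HCC4006 under DMSO, at 1.58 FPKM in library A and 1.36 in library B. In the adapted culture it stood at 79.4 and 78.0 FPKM, with no overlap between groups. Its log2 fold change, adapted minus DMSO on the log2(FPKM + 0.5) scale, was 5.33 (SE 0.24, 95% interval 4.64 to 6.01, adjusted p = 0.0012 in limma). Within the library's expressed rows it moved from above 8.91% and 7.70% of them to above 56.9% and 56.5%. In HCC827 it was listed at 0 and at 0.934 FPKM under DMSO, and at 2.60 and 1.004 in the adapted culture. Both adapted libraries lay above both DMSO libraries there too, at levels under 3 FPKM, and the log2 fold change of 1.35 (SE 0.88, interval −0.97 to 3.67, adjusted p = 0.498) was not called. That value ranged from 0.59 (without DMSO library A) to 2.11 (without DMSO library B) as libraries were left out, and was 2.42 with a pseudocount of 0.1, 0.62 with a pseudocount of 2 and 0.41 after quantile normalization.

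ZEB1 (hg19 chr10:31596657-31818742) showed 3.93 and 7.44 FPKM in HCC4006 under DMSO and 56.3 and 58.3 in the adapted culture. These groups did not overlap, and the log2 fold change was 3.29 (SE 0.38, interval 2.22 to 4.36, adjusted p = 0.0189). In HCC827 it measured 5.60 and 7.63 FPKM under DMSO and 5.72 and 5.47 after adaptation, values that overlap (log2 fold change −0.21, interval −1.34 to 0.92, adjusted p = 0.829). The starting levels in the 2 lines were thus alike in their own tables. Left out in turn, adapted HCC4006 library A or B gave an adjusted p for ZEB1 of 0.336 or 0.349 at a fold change of 3.31 or 3.26, and a fit over only rows above 0 in all libraries gave 0.0686. ZEB2 was called in each of these 3 fits, with an adjusted p between 0.0241 and 0.0392, and both genes were called without DMSO library A. 

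The difference of the changes, HCC827 minus HCC4006, was −3.49 for ZEB1 (SE 0.53, interval −4.79 to −2.20, adjusted p = 0.00821) and −3.98 for ZEB2 (SE 0.86, interval −6.07 to −1.88, adjusted p = 0.0333). Both were called lower and 0 factors higher, among 7 that could be compared, beside 12.1% of all tested rows called as differing, 6.27% higher and 5.82% lower. For the other 5 the difference lay between −1.36 (SNAI1) and −0.15 (TCF3). In the fit over rows above 0 in every library, which leaves ZEB2 out and calls 1.45% of rows, the ZEB1 difference had an adjusted p of 0.0409. The ZEB1 difference missed the threshold without adapted HCC4006 library A (adjusted p = 0.0522) or B (0.0543). The ZEB2 difference missed it with a pseudocount of 0.1 (0.28) and with the column letter as a replicate block (0.115). It also missed it without any 1 of 6 libraries, at −4.06 to −3.22, namely each HCC4006 library and library B of either HCC827 group.

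The balance of the ZEB pair changed with this rise. ZEB2 was 0.403 and 0.183 times the level of ZEB1 in HCC4006 under DMSO, and 1.41 and 1.34 times in the adapted culture. In HCC827 the ratio was 0 and 0.122 under DMSO and 0.453 and 0.184 after adaptation, so ZEB1 remained the higher of the pair in all 4 HCC827 libraries. The 2 genes together made up 1.95% and 2.80% of the summed FPKM of the 8 factors in HCC4006 under DMSO, and 24.9% and 23.8% in the adapted culture. In HCC827 this share stayed between 2.78% and 3.78%.

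**Figure D1:**
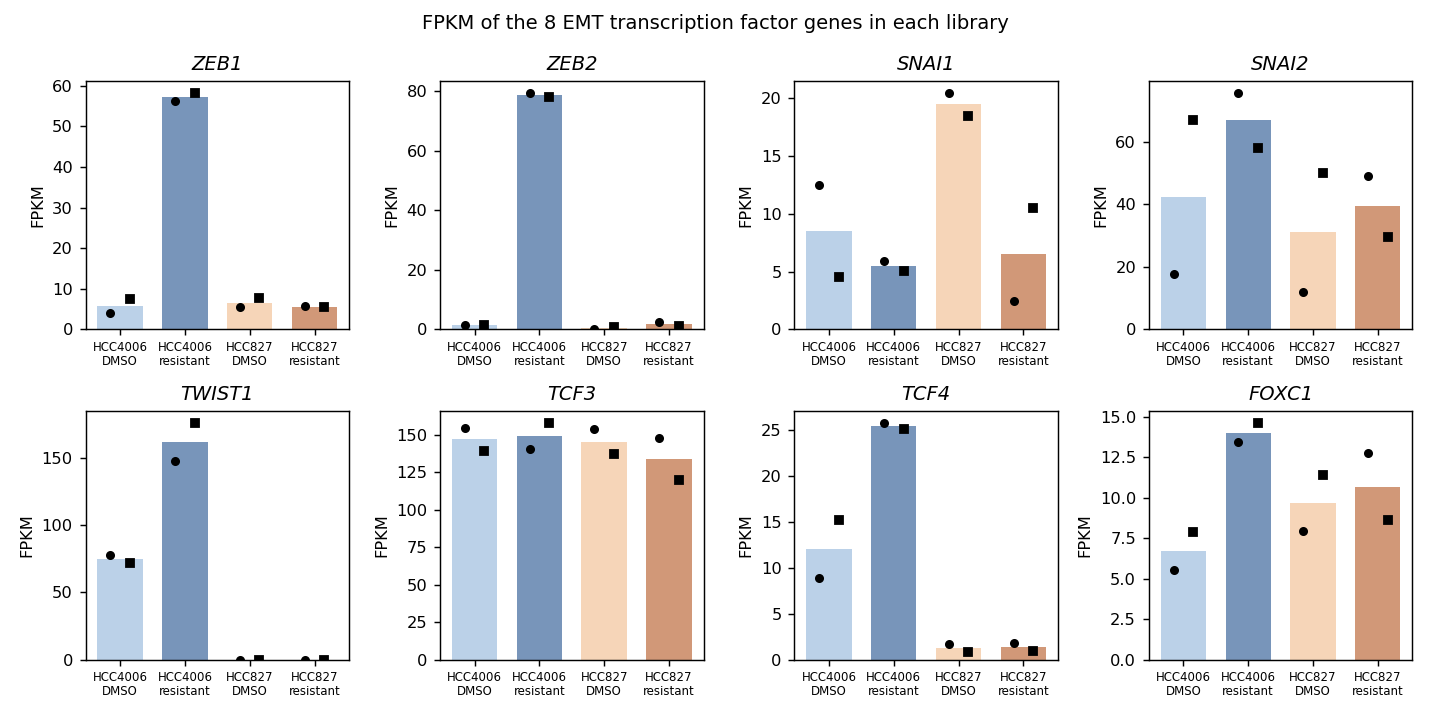
FPKM of each of the 8 factors (vertical axis, own linear scale per gene) in the 4 groups; bars are group means of 2 libraries, circles are library A and squares library B. ZEB1 and ZEB2 stand at 56.3 to 79.4 FPKM in adapted HCC4006 and at most 7.63 FPKM elsewhere, and TWIST1 is listed at 0 in all 4 HCC827 libraries.

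TWIST1 (listed locus hg19 chr7:19060613-19157295, shared with 1 other row) was read in HCC4006 alone. That line had 78.0 and 72.0 FPKM under DMSO and 148 and 176 in the adapted culture, groups that do not overlap. The log2 fold change was 1.10 (SE 0.21, interval 0.51 to 1.70), with an adjusted p of 0.0682 that missed the threshold. In HCC827 the gene was listed at 0 in all 4 libraries, so no change could be taken and the lines were not compared. Already under DMSO, TWIST1 was the second most abundant of the 8 factors in HCC4006, and in the adapted culture its range overlapped that of TCF3 at the top.

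The E-protein genes, whose products pair with TWIST proteins, differed in level and in pattern. TCF3 (hg19 chr19:1609292-1652326) was the most abundant factor in 3 of the 4 groups. It measured 155 and 139 FPKM in HCC4006 under DMSO and 141 and 158 after adaptation, with overlap and a log2 fold change of 0.02 (interval −0.54 to 0.59, adjusted p = 0.96). In HCC827 it measured 154 and 137 FPKM under DMSO and 148 and 119.9 after adaptation (log2 fold change −0.13, interval −0.89 to 0.64, adjusted p = 0.851). TCF4 (hg19 chr18:52889561-53303545) was at 8.91 and 15.2 FPKM in HCC4006 under DMSO and at 25.7 and 25.0 in the adapted culture. The groups did not overlap, and the log2 fold change of 1.09 (interval 0.10 to 2.08, adjusted p = 0.186) was not called. In HCC827 TCF4 was low throughout, at 1.72 and 0.785 FPKM under DMSO and 1.83 and 0.912 after adaptation.

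FOXC1 (hg19 chr6:1610680-1614127) had 5.54 and 7.91 FPKM in HCC4006 under DMSO and 13.4 and 14.6 in the adapted culture, without overlap. Its log2 fold change of 1.03 (SE 0.30, interval 0.17 to 1.88, adjusted p = 0.162) was not called. In HCC827 the values overlapped, at 7.94 and 11.4 FPKM under DMSO and 12.7 and 8.65 after adaptation (log2 fold change 0.14, adjusted p = 0.899).

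In each of the 4 groups the largest log2 gap between library A and B among the 8 factors belonged to SNAI1 or SNAI2, apart from genes listed at 0 throughout. SNAI2 (hg19 chr8:49830326-49834299) had 17.7 and 66.9 FPKM in HCC4006 under DMSO and 75.7 and 58.1 in the adapted culture. The groups overlap, and the log2 fold change was 0.93 (SE 0.73, interval −1.14 to 3.00, adjusted p = 0.516). HCC827 showed 12.1 and 50.1 FPKM under DMSO and 49.0 and 29.7 after adaptation, again overlapping (log2 fold change 0.62, interval −1.41 to 2.64, adjusted p = 0.704). In both DMSO groups library A was the low one. The gap between the 2 DMSO libraries, on the log2 scale, was larger than that of 86.4% of expressed rows in HCC4006 and 91.2% in HCC827. Leaving out DMSO library A turned the SNAI2 change to −0.013 in HCC4006 and −0.39 in HCC827.

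SNAI1 (hg19 chr20:48599535-48605423) measured 12.5 and 4.50 FPKM in HCC4006 under DMSO and 5.94 and 5.03 in the adapted culture, both within the DMSO range (log2 fold change −0.43, interval −2.06 to 1.20, adjusted p = 0.69). In HCC827 it measured 20.5 and 18.5 FPKM under DMSO and 2.49 and 10.5 after adaptation. Here both adapted libraries lay below both DMSO libraries, the only such case among the 8 factors in either line. The log2 fold change of −1.80 (SE 0.72, interval −3.71 to 0.11, adjusted p = 0.297) was not called, and the adapted libraries' own gap was larger than that of 91.0% of rows. It was −0.86 without adapted library A and −2.74 without adapted library B.

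In HCC4006, 2 of the 8 factors were called higher and 0 lower in limma, beside 9.36% of all tested rows called, 6.37% higher and 2.98% lower. The median log2 fold change of the 8 was 1.06, beside −0.01 over all tested rows. In 5 of the 8 both adapted libraries lay above both DMSO libraries, as they did in 26.6% of all tested rows, and in 0 both lay below, beside 26.5%. In HCC827, 0 of 7 tested factors were called by limma (0 also at an unadjusted p under 0.05), beside 6.8% of all tested rows, 5.13% higher and 1.67% lower. Unadjusted, 3526 of the 19324 rows tested there had a p below 0.05 in limma. The median there was 0.10, beside −0.04 over all rows. ZEB2 alone had both adapted libraries above both DMSO libraries, beside 24.3% of rows, and SNAI1 alone had both below, beside 24.7%.

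**Figure D2:**
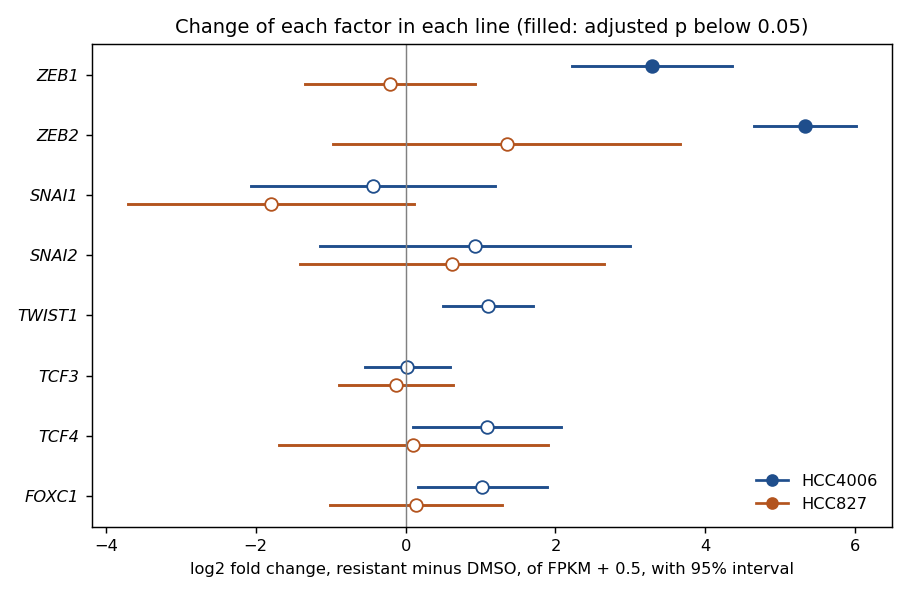
Log2 fold change of FPKM + 0.5, adapted minus DMSO (horizontal axis), for each factor in HCC4006 (blue) and HCC827 (orange); lines are 95% intervals from limma and filled points had an adjusted p below 0.05. Only ZEB1 (3.29) and ZEB2 (5.33) in HCC4006 are filled, and TWIST1 has no HCC827 point because it is listed at 0 there.

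Summed over the 8 factors, HCC4006 held 282.9 and 314.5 FPKM under DMSO and 545 and 573 in the adapted culture. HCC827 held 202 and 226 FPKM under DMSO and 222 and 176 after adaptation, so its groups overlap. TCF3 alone made up 54.7% and 44.2% of the sum in HCC4006 under DMSO and 25.8% and 27.6% after adaptation, at a level that itself did not differ beyond its spread. In HCC827 the TCF3 share was 60.5% to 76.3% in the 4 libraries. Under DMSO the order in HCC4006 was TCF3, TWIST1, SNAI2, TCF4, SNAI1, FOXC1, ZEB1 and ZEB2, where TCF4 overlapped SNAI1, SNAI1 overlapped FOXC1 and FOXC1 overlapped ZEB1. In the adapted culture it was TWIST1, TCF3, ZEB2, SNAI2, ZEB1, TCF4, FOXC1 and SNAI1, with overlap between TWIST1 and TCF3 and between SNAI2 and ZEB1.

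**Figure D3:**
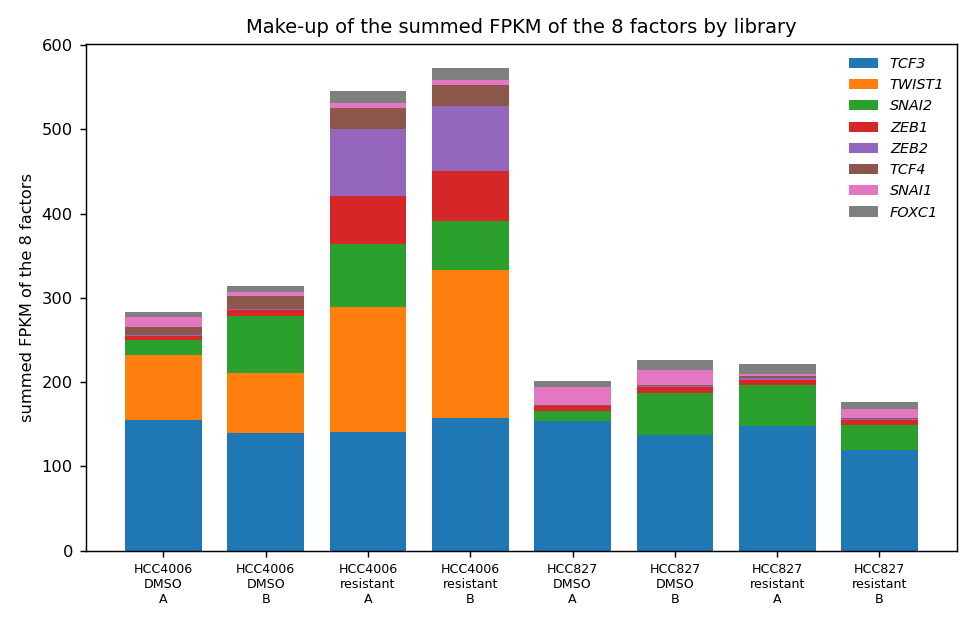
Summed FPKM of the 8 factors in each of the 8 libraries (vertical axis, linear from 0), split by gene. The adapted HCC4006 libraries reach 545 and 573 FPKM, where ZEB1 and ZEB2 together hold 24.9% and 23.8%, while the HCC827 libraries lie between 176 and 226 FPKM.

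Other transcription factors linked to EMT were counted the same way. Of 16 such genes, 12 were tested in HCC4006, where 2 were called higher and 0 lower, beside 6.37% and 2.98% of all rows, with a median log2 fold change of 1.35. TBX3, a T-box repressor, rose from 12.3 and 15.6 to 47.5 and 47.6 FPKM (log2 fold change 1.75, adjusted p = 0.0311, and 0.118 over rows above 0). HMGA2, a chromatin architectural factor named after its values were seen, was listed at 0 in both DMSO libraries and at 293 and 304 FPKM in the adapted ones, while the 4 HCC827 libraries had 713 to 2303 FPKM. The mesenchymal homeobox gene PRRX1 was listed at 0 in all 8 libraries. In HCC827, 0 of 12 tested genes of this list were called by limma (4 at an unadjusted p under 0.05), with a median of −0.43. Of all tested rows there, 6.8% were called (3526 of 19324 unadjusted). Over rows above 0 in every library, 0 genes of this list were called in HCC4006 (7 unadjusted, where 0.534% of all rows were called) or in HCC827 (3 unadjusted, where 0.119% of all rows were called). Unadjusted, 2704 of 16484 such rows passed in HCC4006 and 2033 of 15917 in HCC827.

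Partners and antagonists of the E-proteins were not called in either line (0 of 5 tested genes by limma in each, with 1 in HCC4006 and 0 in HCC827 at an unadjusted p under 0.05). Of all tested rows, 9.36% were called in HCC4006 (4564 of 19881 unadjusted) and 6.8% in HCC827 (3526 of 19324 unadjusted). TCF12, the third E-protein gene, measured 123 and 86.2 FPKM in HCC4006 under DMSO and 111 and 114 after adaptation. The ID genes encode helix-loop-helix proteins that lack a DNA-binding region and sequester E-proteins. ID2 was at 34.0 and 84.6 FPKM in HCC4006 under DMSO and at 184 and 172 in the adapted culture, without overlap (log2 fold change 1.72, adjusted p = 0.164). ID1 spread widely within groups, from 547 to 2879 FPKM between the adapted HCC827 libraries, and ID3 did so as well, at 41.5 and 280.4 FPKM there.

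The corepressors that ZEB, Snail and TWIST proteins recruit were above the filter for 15 of 16 list genes in each line. HDAC2 was listed at 0 in all libraries, and a listed 0 can be a failed estimate. Limma called 0 of 15 tested genes in either line (unadjusted, 1 in HCC4006 and 0 in HCC827). Beside this, 9.36% of all tested rows were called in HCC4006 (4564 of 19881 unadjusted) and 6.8% in HCC827 (3526 of 19324 unadjusted). CTBP1, the corepressor that ZEB proteins bind, lay between 788 and 1540 FPKM in the 8 libraries. CTBP2 measured 914 and 503 FPKM in HCC4006 under DMSO and 302 and 340 in the adapted culture (log2 fold change −1.08, adjusted p = 0.204). Among 15 tested regulators of Snail and TWIST protein stability in HCC4006, 2 were called higher, beside 6.37% of all rows. Over rows above 0, 0 were called (1 unadjusted), beside 0.534% of all rows (2704 of 16484 unadjusted). The 2 called higher were the LOXL2 row, which also carries the name ENTPD4 (1075 and 947 to 2156 and 2274 FPKM, log2 fold change 1.13, adjusted p = 0.049), and the MDM2 row, listed at 0 in both DMSO libraries. In HCC827, 2 of 14 were called higher, beside 5.13% of all rows. They were LOXL3 and MDM2, both listed at 0 under DMSO.

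TGF-beta is the best known inducer of these factors. Of its signalling genes, 0 of 19 were called in HCC4006 by limma (0 also unadjusted), with a median log2 fold change of 0.31. Beside this, 9.36% of all tested rows were called there (4564 of 19881 unadjusted). TGFB1 was at 578 and 542 FPKM under DMSO and 753 and 829 in the adapted culture, and its receptor gene TGFBR1 at 59.3 and 42.3 and then 97.96 and 77.97, with an adjusted p of 0.237 and 0.224. TGFB2, TGFBR2 and the signal transducer SMAD3 had log2 fold changes of −0.27, 0.31 and 0.31 there. In HCC827, 1 of 18 was called higher and 1 lower, beside 5.13% and 1.67% of all rows. BAMBI, which encodes a decoy receptor, fell from 91.5 and 110.5 to 15.2 and 24.1 FPKM (log2 fold change −2.37, adjusted p = 0.0315, and 0.115 over rows above 0), and SKI was called higher from a listed 0. Every HCC827 call named in these lists was lost without DMSO library A or B, where limma called 0 rows of the table (2768 and 2574 unadjusted).

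Regulators that hold cells in the epithelial state and repress EMT were read next. Of 18 tested in HCC4006, 8 were called lower and 2 higher, beside 2.98% and 6.37% of all rows, with a median log2 fold change of −1.84 (−1.43 over the 10 above 0 in all 4 libraries), and 1 (ESRP2) was called in the fit over rows above 0. In that fit 0.534% of all rows were called, 0.431% lower. Without adapted library A or B, fewer of the 18 were called lower, and fewer of all rows were too. GRHL2, a grainyhead factor that represses ZEB1, was at 134 and 138 FPKM under DMSO and listed at 0 in both adapted libraries. The splicing regulators ESRP1 and ESRP2 went from 1136 and 361 FPKM to 1.45 and a listed 0, and from 119.5 and 158 to 14.7 and 18.4 FPKM (ESRP2 log2 fold change −3.03, adjusted p = 0.00915). OVOL1, a zinc finger repressor of ZEB1, was at 1.56 and 1.63 FPKM and then listed at 0 (adjusted p = 0.107). Of those called higher, OVOL2, on a row that also carries the name SNX5, was listed at 0 in both DMSO libraries.

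In HCC827 the same regulators gave 1 lower and 2 higher calls among 16 tested, beside 1.67% and 5.13% of all rows, with a median of −0.12. Both higher calls rest on a DMSO group listed at 0. GRHL1 fell from 60.8 and 49.2 to 15.6 and 13.3 FPKM (log2 fold change −1.89, adjusted p = 0.0453, and 0.178 over rows above 0). GRHL2 was at 317 and 287 FPKM under DMSO and 176 and 89.1 in the adapted culture, without overlap but not called (adjusted p = 0.219). ESRP1 lay between 614 and 1052 FPKM in the 4 libraries. No row was found under 7 names of miR-200 family and miR-205 genes, which included the miR-205 host gene. These microRNAs target ZEB1 and ZEB2 and were not analysed here.

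Epithelial genes known as targets of ZEB and Snail repression were lower in adapted HCC4006. Of 24 tested, 18 were called lower and 2 higher, beside 2.98% and 6.37% of all rows, with a median log2 fold change of −3.57 (the same over the 20 above 0), beside −0.01 over all rows; in the fit over rows above 0, 10 of 20 were called lower, beside 0.534% of all rows called and 0.431% called lower. Without adapted library A or B, their median was −3.73 or −3.52. Fewer of them were then called lower, and fewer of all rows were too. The list holds known targets and was written with earlier results of these data known, so its direction is no independent evidence. The 2 called higher, CLDN4 and CGN, were listed at 0 under DMSO. In HCC827, limma called 0 of 22 higher and 1 lower (4 at an unadjusted p under 0.05), beside 5.13% and 1.67% of all rows (3526 of 19324 unadjusted). The 1 called lower was the tight junction gene OCLN, which was listed at 0 in both adapted libraries. For the difference of the changes, HCC827 minus HCC4006, 17 of 24 were called higher and 3 lower, beside 6.27% and 5.82% of all tested rows. Over rows above 0 in every library, 12 of 19 were called higher and 0 lower, where 1.45% of all rows were called.

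CDH1, which encodes E-cadherin, fell in HCC4006, where the DMSO libraries had 1518 and 945 FPKM and the adapted ones 3.03 and 3.29 (log2 fold change −8.36, SE 0.32, adjusted p = 0.000781). In HCC827 it was at 1325 and 1081 FPKM under DMSO and 1804 and 1132 after adaptation, with overlap (log2 fold change 0.26, adjusted p = 0.741). RAB25, a small GTPase of apical recycling, fell in HCC4006 from 1652 and 989.7 to 4.28 and 4.45 FPKM. AP1M2, an adaptor subunit for basolateral sorting, fell there from 772 and 637 to 3.35 and 3.11 FPKM. CRB3, an apical polarity protein gene, fell from 164 and 111 to 6.88 and 5.69 FPKM, and DSP, which encodes the desmosome protein desmoplakin, from 220.1 and 219 to 3.81 and 4.62. None of these 4 was called in HCC827, where the log2 fold changes were 0.92, 1.23, 0.51 and −1.46 and that of DSP came nearest the threshold (adjusted p = 0.0524).

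The upstream sequences of these 4 genes are shown because each carries the E-box that ZEB and Snail proteins bind and each has a single annotated start. All 4 had been called lower in HCC4006, so they do not stand for every carrier of the E-box. TJP1 also carries a match and was not called there (log2 fold change −0.31, adjusted p = 0.504 in limma). Each run is the 250 bases before the gene start, 5′ to 3′ on the gene's strand, from RefSeq on GRCh38.p14, with every CAGGTG or CACCTG (the same E-box read on either strand) in capitals. The positions are chr19:6464021-6464270 (plus) for CRB3, chr19:10587313-10587562 (minus) for AP1M2, chr1:156060910-156061159 (plus) for RAB25 and chr6:7541421-7541670 (plus) for DSP.
CRB3: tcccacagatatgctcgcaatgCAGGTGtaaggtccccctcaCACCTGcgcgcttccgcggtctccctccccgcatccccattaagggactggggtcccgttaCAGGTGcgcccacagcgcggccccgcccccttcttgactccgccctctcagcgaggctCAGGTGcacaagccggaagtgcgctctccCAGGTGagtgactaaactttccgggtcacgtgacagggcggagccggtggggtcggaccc
AP1M2: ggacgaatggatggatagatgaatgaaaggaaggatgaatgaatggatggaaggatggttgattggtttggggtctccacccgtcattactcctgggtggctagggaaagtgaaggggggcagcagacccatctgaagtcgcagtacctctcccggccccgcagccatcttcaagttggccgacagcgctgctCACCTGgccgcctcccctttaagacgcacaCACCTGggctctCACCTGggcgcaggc
RAB25: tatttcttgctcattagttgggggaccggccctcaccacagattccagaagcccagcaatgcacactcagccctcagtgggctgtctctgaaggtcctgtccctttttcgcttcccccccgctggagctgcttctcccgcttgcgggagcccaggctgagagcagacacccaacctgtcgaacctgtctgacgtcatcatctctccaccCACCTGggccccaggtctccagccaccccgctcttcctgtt
DSP: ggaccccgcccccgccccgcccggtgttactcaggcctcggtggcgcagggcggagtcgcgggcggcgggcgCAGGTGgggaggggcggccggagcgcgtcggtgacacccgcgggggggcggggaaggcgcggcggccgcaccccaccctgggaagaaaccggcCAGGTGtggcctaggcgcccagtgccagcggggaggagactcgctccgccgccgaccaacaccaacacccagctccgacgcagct
CRB3 holds 5 matches, AP1M2 holds 3, DSP holds 2 and RAB25 holds 1.

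Among all 27305 symbols of the RefSeq promoter table, 20.6% had CAGGTG or CACCTG within 250 bases before at least 1 start and 3.08% had 2 or more matches in a window. Of the 15 epithelial list genes with an entry, 10 had it (66.7%) and 6 had 2 or more, while another 10 list genes had no entry. Of 13 mesenchymal list genes with an entry, 2 had it (15.4%), and of the 6 EMT factors with an entry, 1 had it (ZEB1). The 10 epithelial genes with a match had a median log2 fold change of −4.56 in HCC4006, and 9 of them were called lower, beside 2.98% of all tested rows. Among those 9, MUC1, on a row that also carries the name KRTCAP2, was listed at 0 in both adapted libraries. The 5 without a match (CLDN1, CLDN3, CLDN4, CGN and GJB2) had a median of −0.62, with 0 called lower and 2 called higher (6.37% of all tested rows were called higher). Those 2, CLDN4 and CGN, were listed at 0 under DMSO and so could not fall. Over rows above 0 in every library the medians were −4.53 (9 genes, 5 called lower) and −0.91 (3 genes, 0 called lower), beside 0.431% of all rows called lower. In HCC827 the medians over all rows were 0.07 and −0.79. Counted by window, 54.5% of the 22 windows of the epithelial list held a match, beside 17.5% of all windows. The epithelial list holds known targets of factors that bind this E-box, so its share is no independent evidence. A link between match and change was not tested. A match describes these letters only and says nothing of binding.

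**Figure D4:**
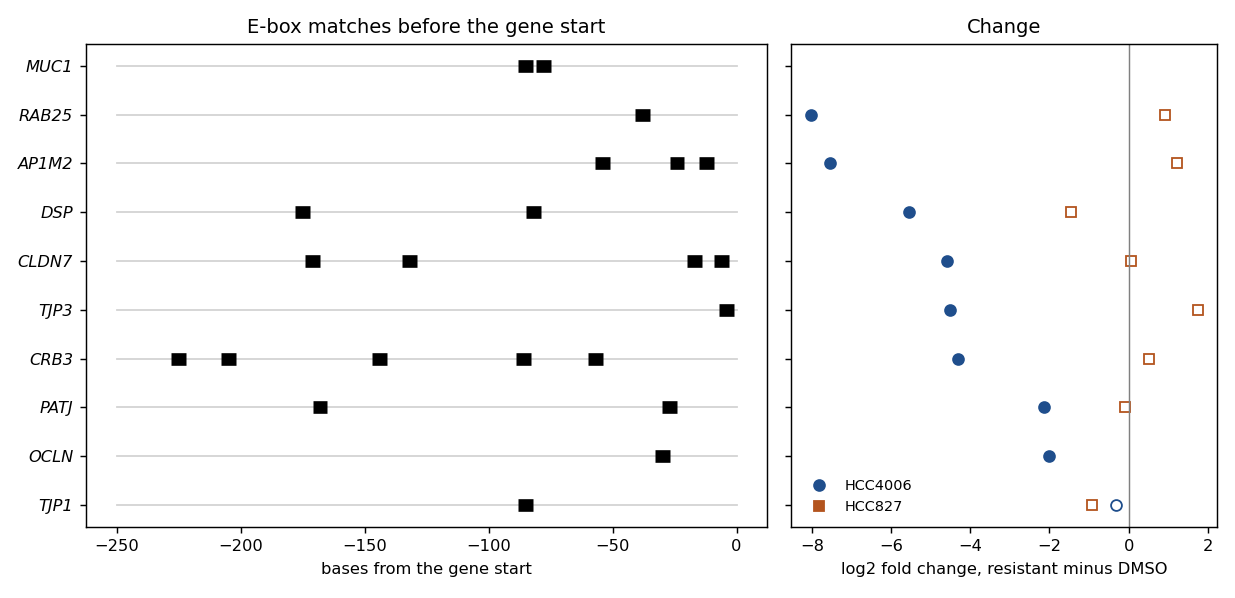
Left, positions of CAGGTG or CACCTG (black) in the 250 bases before the start of the 10 epithelial list genes that carry it, for the start with the most matches; horizontal axis in bases from the gene start. Right, log2 fold change of FPKM + 0.5, adapted minus DMSO, in HCC4006 (circles) and HCC827 (squares), filled where the adjusted p was below 0.05; changes against a group listed at 0 (MUC1, and OCLN in HCC827) are not drawn. The HCC4006 points lie from −8.04 (RAB25) to −0.31 (TJP1).

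Of 19 mesenchymal genes tested in HCC4006, 2 were called higher, beside 6.37% of all rows, and 0 lower. Their median log2 fold change was 1.39. In the fit over rows above 0, limma called 0 of 18 (10 unadjusted), beside 0.534% of all rows (2704 of 16484 unadjusted). CDH2 had an adjusted p of 0.115 in that fit. CDH2, which encodes N-cadherin, rose from 326 and 355 to 762 and 771 FPKM (log2 fold change 1.17, adjusted p = 0.0412). The matrix gene FN1 was listed at 0 under DMSO and at 63.7 and 99.9 FPKM in the adapted culture. VIM, which encodes vimentin, measured 2036 and 3292 FPKM under DMSO and 9074 and 9193 after adaptation (log2 fold change 1.82, adjusted p = 0.0513). In HCC827 CDH2 and FN1 were listed at 0 in all 4 libraries, and VIM measured 155 and 341 FPKM under DMSO and 800.4 and 1071 after adaptation (log2 fold change 2.01, adjusted p = 0.112). FBN1, a microfibril gene, was the 1 of 14 tested called higher in HCC827 (1.16 and 1.79 to 15.1 and 12.5 FPKM, log2 fold change 2.87, adjusted p = 0.0345), beside 5.13% of all rows, and was not called over rows above 0 (0.114).

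Markers of other cell types were read beside these results. The summed FPKM of the 10 lung adenocarcinoma epithelium markers found was 11893 to 18095 in HCC4006 under DMSO, 1913 to 2024 in adapted HCC4006, 15685 to 16869 in HCC827 under DMSO and 11502 to 20216 in adapted HCC827. KRT7 was listed at 0 in all groups, SFTPB in both HCC4006 groups, NAPSA in adapted HCC4006 alone, MUC1 in every group but HCC4006 under DMSO, and CLDN4 in every group but adapted HCC4006. A listed 0 can be a failed estimate, and the KRT7 row shares its listed locus with ACVR1B. In adapted HCC4006 EPCAM was at 183 and 113 FPKM against 1529 and 2003 under DMSO. Of 10 fibroblast markers, COL3A1, THY1, FAP, POSTN and PDPN were listed at 0 in every library, and the sum was 71.7 to 122 FPKM in HCC4006 under DMSO and 96.6 to 119 after adaptation. The PDGFRB row rose there from 2.57 and 0.764 to 21.9 and 26.2 FPKM. The sums in HCC827 were 44.1 to 50.9 and 13.4 to 18.1 FPKM. The immune markers PTPRC, CD3E, MS4A1 and NKG7 and the endothelial markers CDH5, ERG and CLDN5 were listed at 0 in every library. The 10 immune markers summed to 314 to 1132 FPKM in HCC4006 under DMSO and 281 to 436 in the other groups, and the 7 endothelial markers found to at most 4.08 FPKM.

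Rows whose pattern was most like that of ZEB1 and ZEB2 were taken over the 8 libraries, among 13570 rows above 0 in all of them with a mean of at least 5 FPKM, from log2 values centred within each line. For ZEB1 these were ZNRF3 (a ubiquitin ligase gene of WNT receptor turnover, Pearson r 0.998), TOX (a nuclear HMG-box protein gene, 0.991), FAM108B1 (0.991), ABCC9 (a potassium channel regulator gene, 0.983) and AP1S2 (an adaptor subunit gene, 0.982). AP1S2 measured 33.4 and 52.5 FPKM in HCC4006 under DMSO, 309 and 301 in the adapted culture and 41.5 to 71.5 in HCC827. For ZEB2 they were Z83826.1 (0.981), a row with a clone-based name (0.976), GEM (a small GTPase gene, 0.974), STRADB (a pseudokinase gene, 0.971) and TRMT5 (a tRNA methyltransferase gene, 0.962). GEM measured 24.7 and 22.5 FPKM in HCC4006 under DMSO, 139 and 106 in the adapted culture and 35.8 to 65.6 in HCC827. ZEB1 and ZEB2 themselves had r = 0.922. These points share 4 groups of 2 libraries and the spread rests mostly on HCC4006, so the values only describe likeness.

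Other rows lie on the loci of the factors and could share fragments with them, because the library kit does not mark strand. On the ZEB1 locus, RP11-192P3.1 measured 0.503 and 2.97 FPKM in HCC4006 under DMSO and 4.67 and 10.0 in the adapted culture, and RP11-192P3.3 measured 0.916 and 4.48 and then 21.9 and 12.0. In HCC827 these rows lay between 9.25 and 19.9 and between 3.30 and 11.8 FPKM, at ZEB1 levels of 5.47 to 7.63. The rows on the ZEB2 locus (4), the TCF4 locus (2), the TCF3 locus (1) and the TWIST1 locus (1) were listed at 0 in all libraries.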

How the data were processed

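Polyadenylated RNA was sequenced from 8 libraries in 4 groups. The authors deposited FPKM in 2 tables, 1 per line. Per the labels' protocols, RNA came from a miRNeasy kit and libraries from TruSeq RNA v2, which does not mark strand. TopHat 1.4.1, Cufflinks 1.3.0, Cuffdiff and build hg19 are listed, without roles, in the submitters' processing notes. Annotation and options were not given in the sources used here. Depth is unknown, and a listed 0 can be a failed estimate. Per-sample columns outside the groups numbered 0. Column letters were not tied to the labels' replicate numbers.

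limma 3.58.1 in R 4.3.3 was fitted to log2(FPKM + 0.5), with eBayes and its trend option, keeping rows whose mean reached 0.5 FPKM. Benjamini-Hochberg adjustment covered all rows of a fit, and a row was called at an adjusted p below 0.05. Lines were fitted alone; their difference used all 8 libraries. The code was tested on simulated data. No factor had several rows or a joined name, and 1 list gene found only on another chromosome than its own was left out. All 9 factors were named, with fixed genes of the other lists and up to 3 called genes above 0 per list and line; genes named outside this rule were chosen after their values were seen. The factors and lists were chosen with earlier results of these data known.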

Additional observations from a re-analysis of the deposited data

Results flagged for a closer look

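The change with adaptation differed between the lines for 2 factors, by a test of the difference itself in limma. ZEB1 differed by −3.49 on the log2 scale, HCC827 minus HCC4006 (adjusted p = 0.00821), from a change of 3.29 in HCC4006 and −0.21 in HCC827. ZEB2 differed by −3.98 (adjusted p = 0.0333), from a change of 5.33 in HCC4006 and 1.35 in HCC827, where library A under DMSO was listed at 0. The ZEB2 call was lost with a pseudocount of 0.1 (adjusted p = 0.28) and with the column letter as a replicate block (0.115). It was also lost when most single libraries were left out. The ZEB1 call was lost without either adapted HCC4006 library.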

How the results depend on the processing

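Of 303 values of the factors under other settings, 273 kept their direction and their side of the threshold, 13 kept the direction and lost the call, and 17 turned sign. Over rows above 0 in every library, limma called 88 rows in HCC4006, 19 in HCC827 and 212 as differing, in place of 1860, 1314 and 2501; that fit tests 16484, 15917 and 14642 rows in place of 19881, 19324 and 20685. Leaving out 1 library at a time gave 1394 to 3565 rows in HCC4006, 0 to 1520 in HCC827 and 1666 to 3857 as differing. The counts of 0 in HCC827 came without DMSO library A or B, where 2768 and 2574 rows had an unadjusted p below 0.05 in limma, and the highest counts without HCC4006 DMSO library B. Quantile normalization moved the median of all rows from −0.01 to −0.19 in HCC4006 and from −0.04 to −0.24 in HCC827. It turned TCF3 in HCC4006 to −0.061 and, in HCC827, TCF4 to −1.02 and FOXC1 to −0.35; none of these was called in any setting. Without 1 library, changes that were not called turned sign: in HCC4006 SNAI1 ranged from −1.12 to 0.26, SNAI2 from −0.013 to 1.87 and TCF3 from −0.061 to 0.10. In HCC827 SNAI2 ranged from −0.39 to 1.62, FOXC1 from −0.13 to 0.40, TCF4 from −0.29 to 0.50 and TCF3 from −0.28 to 0.024, and as differences SNAI2 from −1.32 to 0.69 and TCF3 from −0.30 to 0.0021. The cause was not tested. With the column letter as a replicate block, 1400, 1485 and 1687 rows were called, and of the factors only the ZEB2 difference lost its call (−3.98, adjusted p = 0.115). The labels do not say that a letter marks a shared source. Over 12006 rows, the A minus B differences of the 2 groups of a line correlated at −0.12 in HCC4006 and 0.22 in HCC827, and those of groups of different lines at −0.14 to 0.35. Summing several rows of a factor gave no value, since none had several. With 2 libraries a group and unknown depth, the precision of low values such as ZEB2 in HCC827 is unknown. List counts under each setting were added after the data were seen.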
